A study of Homo sapiens with 12 samples.

Results

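The transcriptome of 143B, a human osteosarcoma line that the labels call wild-type, was measured after 48 h with 1.0 µM crenolanib and after 48 h with the solvent DMSO. The comparison used 6 of the 12 libraries in the series, 3 with crenolanib and 3 with DMSO, which the labels call biological replicates. A gene was a member if 3 or more of these 6 libraries had 1 FPKM or more of it, which took 11438 of the 56140 gene symbols. FPKM is fragments per kilobase of transcript, scaled to the library's total, so levels of different genes can be set beside each other. The other 6 libraries received ceritinib alone or both drugs, and the 3 ceritinib libraries, at 1.0 µM for the same time, serve below as a second point of comparison. The extraction text speaks of a thymic sample, while all other labels name 143B.

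Crenolanib is a small-molecule inhibitor of the type III receptor tyrosine kinases PDGFRA, PDGFRB and FLT3. Receptors of this class pass growth factor signals to the ERK and PI3K-AKT cascades, which set the transcription of growth, survival and biosynthesis genes. Among the outputs of these cascades, through the kinase complex mTORC1, is ATF4, a transcription factor that binds composite C/EBP-ATF elements together with C/EBP proteins and switches on amino acid synthesis, amino acid import and transfer RNA charging.

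The 6 libraries were close in depth. An estimate from the smallest steps in the values gave a depth of 22.65 to 24.1 M fragments with crenolanib and 23.93 to 26.53 M with DMSO, so that 1 fragment on a 1-kb transcript is worth 0.0377 to 0.0441 FPKM. Libraries of 1 group correlated at 0.995 to 0.996 across the tested genes, and libraries of different groups at 0.990 to 0.991 (Pearson's r on log2 values, a description). Of 16 mesenchymal and osteosarcoma markers 12 were tested, and their summed level was 637 to 645 FPKM with crenolanib and 628 to 656 FPKM with DMSO. Of these 12, 7 rose (13% of all tested genes did) and 1 fell, with a median log2 change of 0.16. Of 10 thymic markers none reached the tested level and 7 were at 0 in all 6 libraries, with sums of 0.069 to 0.086 FPKM with crenolanib and 0.058 to 0.126 FPKM with DMSO. Of the epithelial, endothelial and blood markers 1 of 10, 1 of 8 and 1 of 13 were tested (EPCAM, TIE1 and CD68), and each of the 3 fell (-0.22, -0.26 and -0.43); EPCAM lost its call without any one of DMSO 1, 2 or 3 or crenolanib 1 or 3. The summed levels were 1.596 to 1.95, 10.9 to 12.2 and 20.7 to 21.8 FPKM with crenolanib, against 1.998 to 2.21, 13.1 to 14.4 and 26.1 to 31.2 FPKM with DMSO, and 5 blood markers were at 0 in all 6. Their part in the results was not tested. In bulk RNA, fewer cells of a kind and less RNA per cell cannot be told apart.

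Small changes in many genes made up the response. Of the 11438 genes, 1486 rose (13% of those tested) and 1496 fell (13.1%), 26.1% in all, by limma on log2(FPKM + 1) with a Benjamini-Hochberg adjusted p under 0.05. The groups did not overlap for 5021 genes, 43.9% of those tested. Most genes with library values below were picked by a rule that required non-overlapping groups, so their lack of overlap is no further support. The median change over all genes was -0.003 and the median size was 0.089, and 3 genes rose and 8 fell by a log2 change of at least 1. The 3 were IGFBP5, FST and DKK1. Of the genes tested, 38 reached 1 FPKM in every crenolanib library and in no DMSO library, and 74 the reverse. Such genes passed the filter through 1 group alone and had to differ, so their tests support nothing. Those named below are IGFBP5, ITGA11, IFIT2, DDX60 and SMAD6 for crenolanib, and INHBB and SLC6A9 for DMSO. Counts of list members below include such genes, and can be read against the 13% and 13.1% of all tested genes. Leaving out 1 library gave 935 to 1240 genes higher and 939 to 1284 lower; 935 was without DMSO 3, and 961, 939 and 986 lower genes were without DMSO 1, 2 and 3. Changes are on the log2(FPKM + 1) scale, which understates those of scarce genes.

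Of the receptor genes named as drug targets, PDGFRA reached a tested level. PDGFRA had 7.35, 6.60 and 6.76 FPKM with crenolanib, against 6.95, 6.82 and 6.87 FPKM with DMSO, with overlapping groups (log2 change 0.0032 ± 0.043, SE, limma adjusted p = 0.964). PDGFRB had at most 0.0545 FPKM in any of the 6 libraries and FLT3 at most 0.329. KIT, of the same receptor family but not named above as a target, had at most 0.889, and none of the 3 entered the tests. Among their ligands, KITLG, which encodes stem cell factor, rose (2.39, 2.25 and 2.28 FPKM with crenolanib, against 1.57, 1.56 and 1.495 FPKM with DMSO; log2 change 0.38 ± 0.046, SE, limma adjusted p = 0.00108). PDGFC had 3.27, 2.97 and 2.79 FPKM with crenolanib, against 2.67, 2.41 and 2.53 FPKM with DMSO, groups that did not overlap but a call near the threshold (log2 change 0.18 ± 0.057, SE, limma adjusted p = 0.0498) that was lost without any one of DMSO 1, 2 or 3 or crenolanib 1 or 2. PDGFA did not pass (-0.082, adjusted p = 0.318), and PDGFB, outside the tests, had 0.747 to 0.904 FPKM with crenolanib and 0.367 to 0.396 FPKM with DMSO.

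Amino acid synthesis held the largest fall among the named genes, that of ASNS. ASNS, asparagine synthetase, at chr7:97852118-97872542 of hg38, had 11.5, 11.05 and 10.6 FPKM with crenolanib, against 38.3, 38.5 and 36.5 FPKM with DMSO. The crenolanib values lay at about the same low level in all 3 libraries and far under every DMSO value (log2 change -1.69 ± 0.038, SE, limma adjusted p = 2.71e-07). PCK2, mitochondrial phosphoenolpyruvate carboxykinase, had 5.14, 6.46 and 5.93 FPKM with crenolanib, against 15.01, 15.5 and 14.2 FPKM with DMSO (log2 change -1.22 ± 0.069, SE, limma adjusted p = 2.22e-05). CTH, cystathionine gamma-lyase of cysteine synthesis, had 1.13, 1.14 and 1.10 FPKM with crenolanib, against 3.73, 3.91 and 3.58 FPKM with DMSO (log2 change -1.16 ± 0.047, SE, limma adjusted p = 4.82e-06). None of the 3 genes had overlapping groups, and the ratio of means was 0.292 for ASNS, 0.393 for PCK2 and 0.301 for CTH. In the list of other amino acid metabolism, 2 rose and 10 fell of the 18 tested, with a median change of -0.19. Besides these 3, the proline enzyme PYCR1 fell (-0.48), as did GPT2, ASS1, BCAT1, CBS and GOT1, with changes between -0.64 for the alanine aminotransferase GPT2 and -0.15 for the aspartate aminotransferase GOT1, whose call was lost without DMSO 3 or crenolanib 3. The mitochondrial aspartate aminotransferase GOT2 rose (0.15). An exon of ASNS shares bases with the annotated gene AC079781.5, so part of its reads could belong to that gene.

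The serine pathway fell from its first step to the mitochondrial folate cycle. PSAT1, phosphoserine aminotransferase, had 105, 97.1 and 98.1 FPKM with crenolanib, against 223, 219.9 and 214 FPKM with DMSO. PHGDH, which makes the first committed intermediate of serine synthesis, had 199.7, 207 and 203 FPKM with crenolanib, against 344, 342 and 334 FPKM with DMSO. For both the groups lay clearly apart (log2 change -1.12 ± 0.034, SE, limma adjusted p = 1.72e-06 for PSAT1, -0.74 for PHGDH). Of the folate enzymes of mitochondria, ALDH1L2 had 3.24, 3.22 and 3.29 FPKM with crenolanib, against 7.97, 8.02 and 7.67 FPKM with DMSO (log2 change -1.06 ± 0.037, SE, limma adjusted p = 3.06e-06). MTHFD2 had 40.8, 39.5 and 40.3 FPKM with crenolanib, against 65.9, 67.1 and 66.1 FPKM with DMSO (log2 change -0.71 ± 0.026, SE, limma adjusted p = 3.06e-06). In the list, 2 rose and 7 fell of the 13 tested (median -0.34): PSPH, which completes serine synthesis, and SHMT2 and MTHFD1L of mitochondria fell too (-0.34, -0.55 and -0.34). The cytosolic counterparts SHMT1 and MTHFD1 did not pass the threshold (0.0094 and -0.072). Among those that rose was TYMS (0.17), thymidylate synthase, and the count higher was 1 without DMSO 1, 2 or 3 or crenolanib 1 or 3.

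Enzymes that charge transfer RNA fell mainly where they serve the cytosol. In the cytosolic list, 0 rose and 13 fell of the 20 tested, a median of -0.25, and 11 to 13 fell without any single library. WARS, for tryptophan, had 32.9, 32.5 and 33.3 FPKM with crenolanib, against 55.9, 56.3 and 54.6 FPKM with DMSO. CARS, for cysteine, had 10.5, 10.5 and 10.7 FPKM with crenolanib, against 18.1, 18.2 and 18.3 FPKM with DMSO. SARS, for serine, had 78.0, 76.5 and 77.6 FPKM with crenolanib, against 124, 119 and 120.3 FPKM with DMSO. All 3 had groups far apart relative to their spread, with log2 changes of -0.74, -0.73 and -0.64 (limma, adjusted p = 3.06e-06, 3.92e-06 and 4.82e-06). MARS (-0.59), YARS (-0.52), AARS (-0.51), GARS (-0.50), EPRS (-0.48), NARS (-0.41), IARS (-0.28), LARS (-0.22), FARSB (-0.11) and DARS (-0.11) also fell, though FARSB lost its call without any one of DMSO 1 or 3 or crenolanib 2 or 3, and DARS without any one library but crenolanib 1. VARS, QARS, TARS, KARS, HARS, RARS and FARSA did not pass, with changes between -0.086 and 0.082. In the mitochondrial list, 0 rose and 2 fell of the 17 tested (median -0.011), or 11.8% lower, against 13.1% of all tested genes. The 2 were IARS2 (-0.26) and TARS2 (-0.21), for isoleucine and threonine. MARS shares exon bases with DDIT3 and ARHGAP9 in the annotation.

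**Figure D1:**
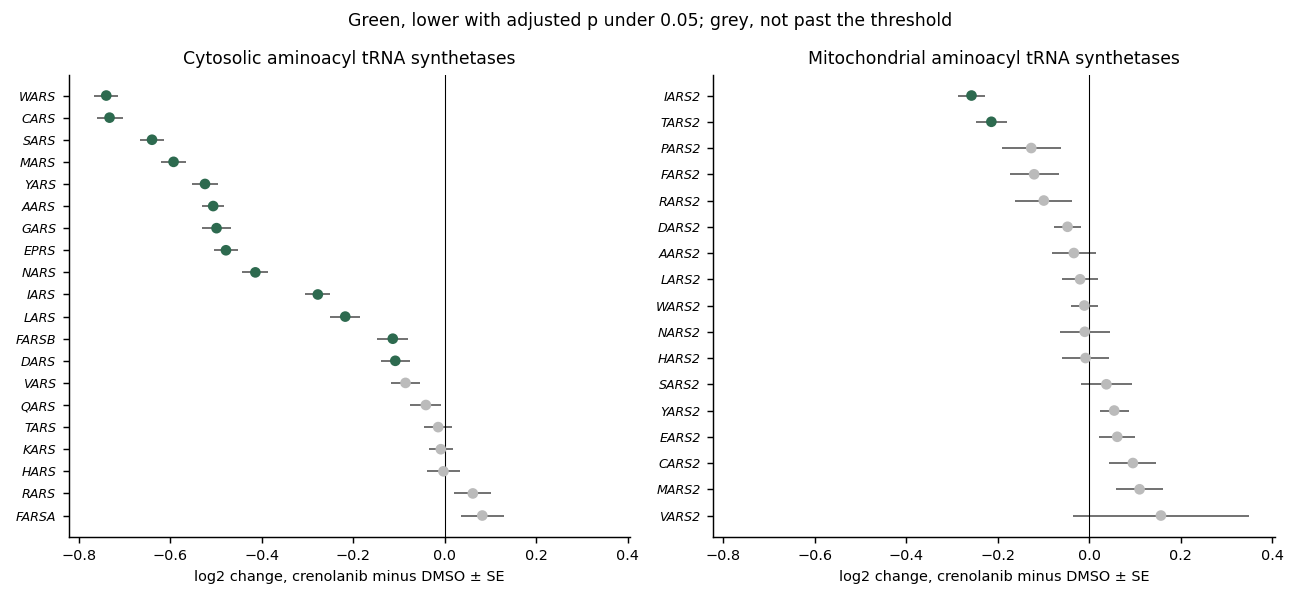
Each point is 1 aminoacyl-tRNA synthetase gene, on the horizontal axis its log2 change (crenolanib minus DMSO, log2(FPKM + 1) scale) with its standard error, cytosolic enzymes on the left and mitochondrial ones on the right; green points passed adjusted p under 0.05. In the cytosolic panel 13 of 20 points are green, and in the mitochondrial panel 2 of 17.

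Amino acid importers split in both directions. In the transporter list, 6 rose and 6 fell of the 21 tested (median 0.03). SLC7A5, the light chain of the large neutral amino acid transporter, had 33.9, 39.0 and 36.0 FPKM with crenolanib, against 61.5, 63.4 and 59.8 FPKM with DMSO (log2 change -0.75 ± 0.049, SE, limma adjusted p = 4.86e-05), and its heavy chain SLC3A2 fell less (-0.22). The glycine transporter SLC6A9 (-0.61), the cystine-glutamate exchanger SLC7A11 (-0.59), and SLC1A5 (-0.34) and SLC1A4 (-0.31), which carry neutral amino acids, also fell. SLC38A2, a sodium-coupled carrier of small neutral amino acids, rose, with 69.0, 66.1 and 67.8 FPKM with crenolanib, against 47.0, 50.2 and 47.7 FPKM with DMSO (log2 change 0.48 ± 0.033, SE, limma adjusted p = 5.9e-05). SLC7A6 rose by a like amount (0.48), and SLC38A10, SLC6A6, SLC15A4 and SLC38A7 by less, the last (0.16) losing its call without any one library but crenolanib 3.

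The regulators and sensors of amino acid and endoplasmic reticulum stress fell more often than they rose. ATF4 itself had 153, 156 and 153 FPKM with crenolanib, against 200.2, 198 and 199 FPKM with DMSO (log2 change -0.37 ± 0.023, SE, limma adjusted p = 3.73e-05). CHAC1, a glutathione-degrading enzyme induced through ATF4, had 2.23, 2.09 and 2.05 FPKM with crenolanib, against 4.68, 5.24 and 4.78 FPKM with DMSO (log2 change -0.92 ± 0.051, SE, limma adjusted p = 2.16e-05). DDIT4, an inhibitor of mTORC1, had 13.1, 14.1 and 14.3 FPKM with crenolanib, against 22.3, 22.3 and 22.2 FPKM with DMSO (log2 change -0.65 ± 0.038, SE, limma adjusted p = 2.51e-05). In all 3 genes each crenolanib library was below each DMSO library. JDP2 (-0.65), a repressor of the AP-1 family, and the leucine sensor SESN2 (-0.55) fell as well, and over the list 4 rose and 10 fell of the 22 tested (median -0.16). The members that rose included ATF5 (0.53), a relative of ATF4, and PPP1R15A (0.22) and PPP1R15B (0.24), which recruit the phosphatase for eIF2 alpha. DDIT3, which encodes CHOP, HERPUD1 and XBP1 did not pass the threshold (-0.07, -0.032 and -0.15), and in the list of endoplasmic reticulum chaperones 11 rose and 0 fell of the 24 tested (median 0.11), with 7 higher without DMSO 1. HSPA5, the chaperone BiP, did not pass (0.01), and the lectin chaperones CALR (0.21) and CANX (0.19) rose.

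Promoters of the genes that fell were read for the composite element that ATF4 and C/EBP proteins bind. The windows run from 250 bases before to 50 bases after each RefSeq gene start on GRCh38.p14. The letters searched were TGATGNAAN on both strands, and 1002 of 27305 promoters hold them (3.67%). Among genes tested, 132 of 8722 hold them (1.513%), against which 32 of 1142 genes that fell (2.802%) and 14 of 1184 that rose (1.182%) do. Of the cytosolic synthetases with a RefSeq promoter, 6 of 15 hold them, and of the 9 that fell 5 do, namely AARS, CARS, IARS, MARS and NARS. The sixth, TARS, did not pass (-0.015). In other amino acid metabolism the holders are ASNS, GOT1 and BCAT1, 3 of 14, all of which fell. In the serine and one-carbon list 1 of 8 holds them, and of the 4 that fell 1 does, namely MTHFD1L. The stress regulators hold it in 3 of 21, of which CHAC1 fell, PPP1R15B rose (0.24) and HERPUD1 did not pass (-0.032). The amino acid transporters hold it in 3 of 18, of which SLC3A2 fell (-0.22) and SLC7A1 (-0.056) and SLC38A1 (0.03) did not pass. No match says only that these letters are not in the window. For 5 holders picked because they fell, a 150-base stretch of the promoter, 5′ to 3′ on the gene's strand, shows where the element lies relative to the start, with the element in capitals.
ASNS (chr7:97872387-97872536, minus strand): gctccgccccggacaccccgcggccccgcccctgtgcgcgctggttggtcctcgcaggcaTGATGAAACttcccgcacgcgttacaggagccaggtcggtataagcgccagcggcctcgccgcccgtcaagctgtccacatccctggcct
CHAC1 (chr15:40953221-40953370, plus strand): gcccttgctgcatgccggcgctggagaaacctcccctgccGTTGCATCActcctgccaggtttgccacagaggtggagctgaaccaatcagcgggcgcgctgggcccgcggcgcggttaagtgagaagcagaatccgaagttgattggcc
CARS (chr11:3057374-3057523, minus strand): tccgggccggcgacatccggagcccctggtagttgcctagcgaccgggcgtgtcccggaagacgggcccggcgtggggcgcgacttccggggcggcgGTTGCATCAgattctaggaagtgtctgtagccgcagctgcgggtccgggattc
MARS (chr12:57487968-57488117, plus strand): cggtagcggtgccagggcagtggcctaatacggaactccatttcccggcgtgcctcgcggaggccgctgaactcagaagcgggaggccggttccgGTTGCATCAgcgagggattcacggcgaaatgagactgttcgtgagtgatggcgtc
AARS (chr16:70289605-70289754, minus strand): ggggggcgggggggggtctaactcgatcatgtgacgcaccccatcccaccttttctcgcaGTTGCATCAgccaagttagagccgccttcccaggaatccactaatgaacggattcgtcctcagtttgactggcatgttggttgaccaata
Counted from the gene start, the element's first base is at -68 in ASNS, -210 in CHAC1, -188 in AARS, -5 in MARS and -3 in CARS. In ASNS it reads in the direction of the gene, and in the other 4 as its reverse complement. Their log2 changes with crenolanib were -1.69, -0.92, -0.51, -0.59 and -0.73 in that order. A match is a description of letters and not evidence of binding.

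Secreted binding proteins and growth factor antagonists stood at the top of the genes that rose. IGFBP5, at chr2:216672105-216695525 of hg38, encodes a protein that binds insulin-like growth factors in the extracellular space. It had 3.76, 3.57 and 4.17 FPKM with crenolanib, against 0.633, 0.548 and 0.610 FPKM with DMSO. All 3 crenolanib values were several times every DMSO value, a ratio of means of 6.42 and a log2 change of 1.60. Every DMSO value was under 1 FPKM, so IGFBP5 entered the tests through the crenolanib libraries alone. IGFBP7, a related matrix protein, had 45.6, 41.8 and 43.3 FPKM with crenolanib, against 20.9, 23.1 and 22.4 FPKM with DMSO (log2 change 0.95 ± 0.045, SE, limma adjusted p = 1.01e-05). IGFBP4, another binding protein of the family, had 72.8, 78.8 and 78.0 FPKM with crenolanib, against 43.0, 41.7 and 38.7 FPKM with DMSO (log2 change 0.88 ± 0.046, SE, limma adjusted p = 1.54e-05). In all 3 genes every crenolanib library lay above every DMSO library. The other members tested did not pass: IGFBP2 (0.15, adjusted p = 0.0995), IGFBP3 (0.039, adjusted p = 0.53) and IGFBP6 (-0.055, adjusted p = 0.589), and IGFBP1 had at most 0.403 FPKM in any of the 6 libraries and was not tested. In the whole insulin-like growth factor list, 5 rose and 0 fell of the 11 tested (median 0.11), and 3 passed without DMSO 2 or without DMSO 3. The receptor IGF1R had 9.32, 8.91 and 9.18 FPKM with crenolanib, against 8.37, 7.81 and 7.996 FPKM with DMSO (log2 change 0.16 ± 0.037, SE, limma adjusted p = 0.0161), and its call was lost without either of those libraries.

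**Figure D2:**
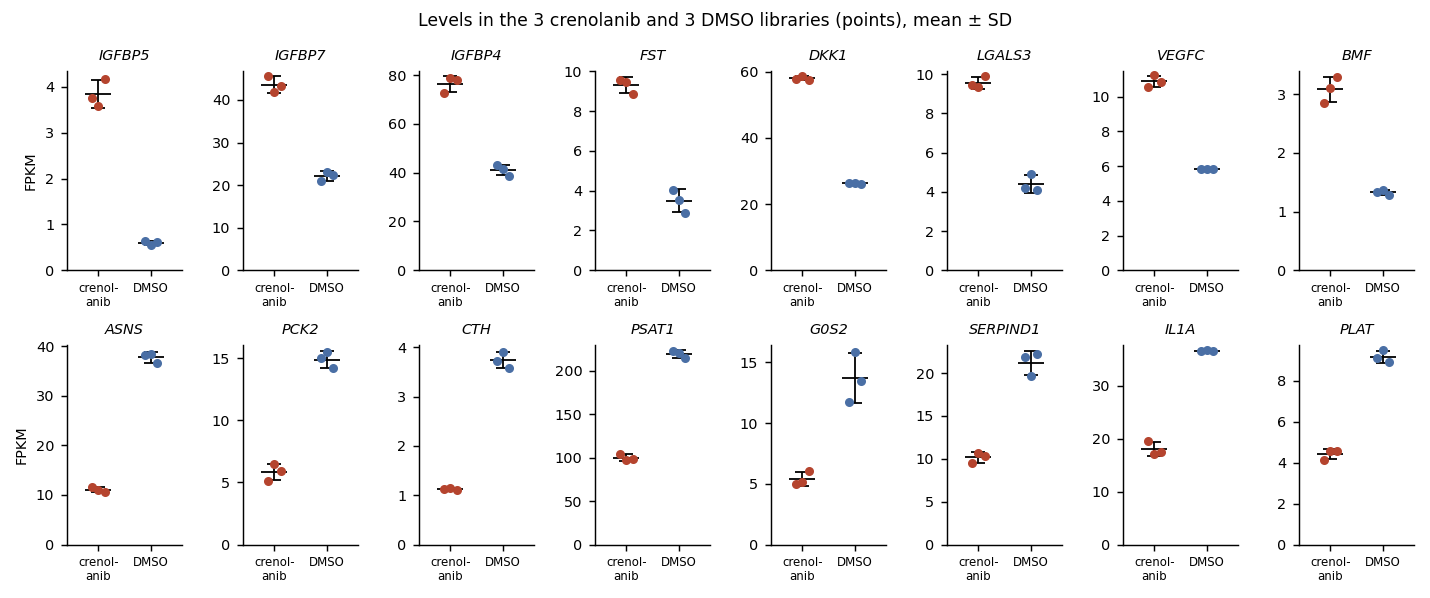
Points are single libraries, crenolanib in red on the left and DMSO in blue on the right of each panel, with the mean and SD in black; vertical axes are FPKM and start at 0. The upper row holds genes that rose and the lower row genes that fell. In none of the 16 panels do the 2 groups overlap (IGFBP5 3.57 to 4.17 with crenolanib and 0.548 to 0.633 with DMSO). The rule for naming genes required this.

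FST, follistatin, which binds and neutralises activins, had 9.57, 9.48 and 8.84 FPKM with crenolanib, against 4.04, 3.54 and 2.90 FPKM with DMSO (log2 change 1.20 ± 0.085, SE, limma adjusted p = 6.85e-05). DKK1, a secreted inhibitor of WNT co-receptors, had 57.9, 58.6 and 57.5 FPKM with crenolanib, against 26.5, 26.5 and 26.2 FPKM with DMSO, with libraries of each group close together (log2 change 1.11 ± 0.025, SE, limma adjusted p = 2.71e-07). VEGFC, a ligand of the lymphatic endothelial receptor, had 10.6, 11.2 and 10.8 FPKM with crenolanib, against 5.81, 5.84 and 5.84 FPKM with DMSO (log2 change 0.80 ± 0.035, SE, limma adjusted p = 6.86e-06). LGALS3, the beta-galactoside-binding lectin galectin-3, had 9.45, 9.32 and 9.88 FPKM with crenolanib, against 4.22, 4.92 and 4.09 FPKM with DMSO (log2 change 0.97 ± 0.059, SE, limma adjusted p = 3.4e-05). Its binding partner LGALS3BP rose too (0.67). Among genes of the cell surface, DCBLD2, a neuropilin-like receptor, had 21.3, 19.9 and 20.3 FPKM with crenolanib, against 11.5, 11.3 and 11.1 FPKM with DMSO (log2 change 0.81 ± 0.035, SE, limma adjusted p = 6.86e-06), the interleukin-7 receptor IL7R had 6.32, 6.73 and 6.38 FPKM with crenolanib, against 3.52, 3.19 and 3.32 FPKM with DMSO (log2 change 0.78 ± 0.045, SE, limma adjusted p = 2.5e-05), and the chemokine receptor CXCR4 had 2.62, 2.50 and 2.60 FPKM with crenolanib, against 1.32, 0.786 and 0.774 FPKM with DMSO (log2 change 0.88 ± 0.10, SE, limma adjusted p = 0.000773). The groups did not overlap for any of the 3, though DMSO 1 was higher than the other DMSO libraries in CXCR4. CPA4, a secreted carboxypeptidase, rose as well (0.73).

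The signalling lists to which FST and DKK1 belong showed smaller changes. In the list of TGF-beta, activin and BMP signalling, 10 rose and 2 fell of the 30 tested (median 0.044). TGFBI, a matrix protein induced by TGF-beta, had 65.3, 67.0 and 65.0 FPKM with crenolanib, against 43.2, 41.1 and 39.9 FPKM with DMSO (log2 change 0.66 ± 0.034, SE, limma adjusted p = 1.54e-05). LTBP1, which holds latent TGF-beta in the matrix, had 6.24, 5.85 and 6.21 FPKM with crenolanib, against 3.57, 3.84 and 3.18 FPKM with DMSO (log2 change 0.65 ± 0.058, SE, limma adjusted p = 0.000233). The receptors TGFBR1 (0.20, not without DMSO 1) and TGFBR2 (0.24) rose, and so did the inhibitory SMAD6 (0.30), the target ID3 (0.28) and the BMP antagonist GREM1 (0.25). BMP6 (-0.53) and INHBB (-0.40), both ligands, fell, and the count lower was 1 without any one of DMSO 1, 2 or 3 or crenolanib 1 or 2. In the WNT list, 5 rose and 3 fell of the 27 tested (median -0.015). These are 18.5% and 11.1%, against 13% and 13.1% of all tested genes. Without DMSO 1 or DMSO 2, 3 were higher and 1 lower. The count higher was 3 without DMSO 3, crenolanib 1 or crenolanib 2, and the count lower was 1 without crenolanib 3.

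Genes of the extracellular matrix changed in both directions, more of them upward. FN1, fibronectin, had 31.1, 30.6 and 30.6 FPKM with crenolanib, against 18.9, 18.2 and 18.3 FPKM with DMSO (log2 change 0.71 ± 0.028, SE, limma adjusted p = 4.66e-06). COL6A3, a chain of collagen VI, had 30.8, 30.6 and 31.1 FPKM with crenolanib, against 21.5, 22.8 and 21.4 FPKM with DMSO (log2 change 0.47 ± 0.032, SE, limma adjusted p = 5.73e-05). EFEMP1, the matrix protein fibulin-3, had 40.1, 37.5 and 37.4 FPKM with crenolanib, against 28.3, 26.5 and 26.8 FPKM with DMSO (log2 change 0.48 ± 0.039, SE, limma adjusted p = 0.000144). Over the matrix list, 15 rose and 6 fell of the 30 tested (median 0.097). Those that fell were HSPG2, VCAN, THBS2, MFAP2, TNC and COL13A1, between -0.36 for the proteoglycan HSPG2 and -0.17 for COL13A1, while THBS1 rose (0.36). MFAP2 lost its call without DMSO 1 or crenolanib 3. Of the enzymes that modify and cross-link collagen, 10 rose and 0 fell of the 17 tested (median 0.19), and 7 to 10 rose without any single library. P3H2, a prolyl 3-hydroxylase, rose most (0.55), followed by the procollagen enhancer PCOLCE (0.34), LOXL2 (0.26), LOX (0.26) and the disulfide isomerase P4HB (0.23).

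Genes of cell surface proteolysis split. TIMP3, an inhibitor of metalloproteinases, had 87.6, 85.2 and 84.5 FPKM with crenolanib, against 60.8, 59.8 and 58.3 FPKM with DMSO (log2 change 0.52 ± 0.028, SE, limma adjusted p = 1.85e-05). TIMP2, another such inhibitor, had 9.56, 9.90 and 8.57 FPKM with crenolanib, against 5.80, 5.45 and 5.47 FPKM with DMSO (log2 change 0.65 ± 0.053, SE, limma adjusted p = 0.000151), and the gelatinase MMP2 rose with it (0.52). MMP14, the membrane protease that activates MMP2, fell (27.4, 27.4 and 26.8 FPKM with crenolanib, against 31.8, 33.8 and 32.6 FPKM with DMSO; log2 change -0.26 ± 0.031, SE, limma adjusted p = 0.000949). In the metalloproteinase list, 4 rose and 2 fell of the 10 tested, with 1 lower without DMSO 1, DMSO 2, crenolanib 1 or crenolanib 3. In the plasminogen list, 2 rose and 5 fell of the 8 tested, and both counts were the same without any single library. PLAU, urokinase, had 160.2, 161 and 161 FPKM with crenolanib, against 239.9, 236 and 228 FPKM with DMSO (log2 change -0.54 ± 0.027, SE, limma adjusted p = 1.21e-05), and exon bases of the annotated C10orf55 overlap it. PLAT, tissue-type activator, had 4.15, 4.57 and 4.56 FPKM with crenolanib, against 9.11, 9.49 and 8.92 FPKM with DMSO (log2 change -0.91 ± 0.045, SE, limma adjusted p = 1.13e-05). The urokinase receptor PLAUR (-0.37) and ANXA2 (-0.11) also fell, whereas S100A10 (0.48), the partner of ANXA2, and SERPINE2 (0.41), a second protease inhibitor, rose, and PLGRKT did not pass (-0.073). The thrombin inhibitor SERPIND1, outside the list, was among the largest falls (9.51, 10.7 and 10.3 FPKM with crenolanib, against 21.8, 19.6 and 22.2 FPKM with DMSO; log2 change -0.99 ± 0.056, SE, limma adjusted p = 2.27e-05).

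Of the integrins, which couple cells to this matrix, 8 rose and 3 fell of the 12 tested (median 0.31), the highest median of the lists with more than 6 tested members. ITGA2, a collagen receptor chain, had 45.1, 40.4 and 43.2 FPKM with crenolanib, against 26.7, 27.0 and 26.4 FPKM with DMSO (log2 change 0.66 ± 0.041, SE, limma adjusted p = 3.4e-05). ITGA11, another collagen-binding chain, had 1.51, 1.52 and 1.43 FPKM with crenolanib, against 0.635, 0.749 and 0.715 FPKM with DMSO (log2 change 0.55, under 1 FPKM in every DMSO library). ITGB3 went the other way, with 3.59, 3.51 and 3.13 FPKM with crenolanib, against 6.48, 6.86 and 6.21 FPKM with DMSO (log2 change -0.77 ± 0.054, SE, limma adjusted p = 6.85e-05). The groups did not overlap in these 3. Also higher were ITGA1 (0.43), ITGA10 (0.33), ITGB5 (0.32), ITGA3 (0.32), ITGAV (0.30) and ITGA4 (0.26), and also lower were ITGA5 (-0.30) and ITGB1 (-0.15), the chains of the classical fibronectin receptor. ITGA6 did not pass (0.042). The laminin chain LAMB3 fell (5.92, 5.91 and 6.25 FPKM with crenolanib, against 11.5, 11.8 and 10.7 FPKM with DMSO; log2 change -0.81 ± 0.044, SE, limma adjusted p = 1.85e-05), as did SPP1, osteopontin, an integrin ligand (6.48, 6.31 and 5.71 FPKM with crenolanib, against 10.9, 10.9 and 11.1 FPKM with DMSO; log2 change -0.74 ± 0.046, SE, limma adjusted p = 3.45e-05).

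Both interleukin-1 genes fell. IL1A had 19.6, 17.1 and 17.4 FPKM with crenolanib, against 36.6, 36.7 and 36.6 FPKM with DMSO (log2 change -0.99 ± 0.047, SE, limma adjusted p = 1.01e-05). IL1B had 3.03, 2.89 and 2.64 FPKM with crenolanib, against 6.30, 5.81 and 6.17 FPKM with DMSO (log2 change -0.88 ± 0.051, SE, limma adjusted p = 2.53e-05). The DMSO libraries of IL1A were close together, and no crenolanib library of either gene came near the DMSO level. In the whole list 2 rose and 2 fell of the 7 tested, the 2 that rose being the kinases IRAK1 (0.18) and IRAK2 (0.25). BCL2A1, an NF-kB-regulated survival gene, had 2.77, 3.46 and 2.85 FPKM with crenolanib, against 5.73, 7.58 and 6.34 FPKM with DMSO (log2 change -0.90 ± 0.096, SE, limma adjusted p = 0.000575). Other cytokine genes did not share one direction: of the chemokine and NF-kB list, 8 rose and 5 fell of the 19 tested (median -0.001), and 4 to 7 rose without any single library, the count being 4 without DMSO 2, DMSO 3 or crenolanib 3 and 5 without DMSO 1 or crenolanib 2. TNFAIP2 (-0.39), IL11 (-0.33) and NFKB2 (-0.32) fell, CXCL8 fell (-0.30), and LIF rose (0.39).

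Of the tested genes induced by type I interferon, some rose, most of them from low levels, and none fell. IFI44 had 3.01, 2.59 and 2.58 FPKM with crenolanib, against 0.892, 1.02 and 0.835 FPKM with DMSO (log2 change 0.96 ± 0.065, SE, limma adjusted p = 5.76e-05). IFIT2, which inhibits translation of viral RNA, had 1.57, 1.69 and 1.70 FPKM with crenolanib, against 0.421, 0.353 and 0.440 FPKM with DMSO (log2 change 0.92, under 1 FPKM in every DMSO library). IFIT3, its partner, had 2.31, 2.21 and 2.75 FPKM with crenolanib, against 0.955, 1.05 and 0.867 FPKM with DMSO (log2 change 0.81 ± 0.071, SE, limma adjusted p = 0.000214). These 3 were near or under 1 FPKM in DMSO, and the ratios of means were 2.97, 4.08 and 2.54. ISG15, a ubiquitin-like modifier, had 9.25, 11.8 and 10.5 FPKM with crenolanib, against 6.39, 6.34 and 5.74 FPKM with DMSO (log2 change 0.68 ± 0.077, SE, limma adjusted p = 0.000773). In the list, 9 rose and 0 fell of the 20 tested (median 0.15). The others that rose were DDX60 (0.40), DDX58 (0.33), which encodes the RNA sensor RIG-I, DTX3L (0.30), IRF1 (0.23) and HERC5 (0.20). IFIT2 and DDX60, counted among the 9, entered the tests through the crenolanib libraries alone. The calls of IRF1 and HERC5 were each lost without 4 of the 6 single libraries. STAT2, OAS3 and PARP14 were tested and did not pass (0.013, 0.014 and -0.0026). Of the genes that load peptides on MHC class I, 6 rose and 0 fell of the 13 tested (median 0.072). TAPBP (0.33), ERAP1 (0.26), B2M (0.24), HLA-C (0.20) and PSME1 (0.15) were among them. HLA genes resemble each other closely, so reads could be split between them, and the call for PSME1 was lost without DMSO 1.

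The interferon response element was sought in the same promoters, as GAAA, any 2 bases and GAAA on either strand. It occurs in 996 of 27305 promoters (3.648%) and in 230 of 8722 genes tested (2.637%). Of the interferon list, 12 of 17 genes with a promoter hold it, and 6 of the 8 that rose do, namely IFIT3, IFI44, ISG15, DDX60, HERC5 and DTX3L. The matches are in capitals in the stretches of 3 of them, 5′ to 3′ on the gene's strand of GRCh38.p14, shown for their place near the start.
IFIT3 (chr10:89327781-89327930, plus strand): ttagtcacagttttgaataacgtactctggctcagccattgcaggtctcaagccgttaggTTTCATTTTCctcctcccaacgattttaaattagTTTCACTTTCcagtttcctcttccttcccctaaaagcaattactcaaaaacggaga
IFI44 (chr1:78649689-78649838, plus strand): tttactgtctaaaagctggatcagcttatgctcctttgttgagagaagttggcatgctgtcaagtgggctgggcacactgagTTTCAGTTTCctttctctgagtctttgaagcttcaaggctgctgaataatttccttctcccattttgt
ISG15 (chr1:1013324-1013473, plus strand): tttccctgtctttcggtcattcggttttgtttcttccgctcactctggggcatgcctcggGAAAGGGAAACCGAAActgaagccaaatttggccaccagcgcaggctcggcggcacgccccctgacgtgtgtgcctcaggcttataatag
IFIT3 has 2 matches, whose first bases are at -156 and -122 from the start, ISG15 has 2 overlapping ones at -113 and -107, and IFI44 has 1 at -18. The other 6 holders tested did not pass the threshold, with changes between -0.083 for IFIT5 and 0.28 for IFI6.

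Cholesterol synthesis genes rose by modest amounts along most of the pathway. ACAT2, which makes acetoacetyl-CoA at its entry, had 49.6, 48.6 and 47.9 FPKM with crenolanib, against 32.1, 31.9 and 31.6 FPKM with DMSO (log2 change 0.60 ± 0.026, SE, limma adjusted p = 6.86e-06). HMGCS1, the next enzyme, had 26.8, 25.3 and 26.0 FPKM with crenolanib, against 19.2, 20.6 and 19.4 FPKM with DMSO (log2 change 0.38 ± 0.036, SE, limma adjusted p = 0.000338). In the list, 17 rose and 1 fell of the 27 tested (median 0.17), and 14 or 15 rose without any single library. SQLE (0.32), LSS (0.33), FDPS (0.31) and EBP (0.45) were among them. The sterol sensor INSIG1 did not pass (0.065), and STARD4 fell (-0.29). ACAT2 shares exon bases with SOD2 and TCP1. The letters TCACNCCAC, a sterol regulatory element, occur in 0.997% of promoters of tested genes. Of the cholesterol list 1 of 21 promoters holds them, that of SREBF2, which rose. Of the fatty acid and lipid storage list, 7 rose and 2 fell of the 21 tested: the desaturases FADS2 (14.7, 16.2 and 14.8 FPKM with crenolanib, against 9.31, 9.47 and 8.55 FPKM with DMSO; log2 change 0.68 ± 0.051, SE, limma adjusted p = 9.3e-05) and FADS1 (0.34), whose exons overlap in part, and the lipid droplet coat PLIN2 (0.53) rose. G0S2, an inhibitor of the lipase ATGL, fell, with 4.94, 5.17 and 6.03 FPKM with crenolanib, against 11.8, 15.9 and 13.4 FPKM with DMSO (log2 change -1.20 ± 0.10, SE, limma adjusted p = 0.000174).

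Many lysosomal genes rose, by small amounts. In the list, 22 rose and 2 fell of the 37 tested (median 0.18), and 19 to 21 rose without any single library (1 fell without DMSO 1 or DMSO 2). GPNMB, a glycoprotein of lysosomes and melanosomes, had 2.47, 2.45 and 2.54 FPKM with crenolanib, against 1.33, 1.29 and 1.44 FPKM with DMSO (log2 change 0.57 ± 0.048, SE, limma adjusted p = 0.000187). PSAP, the precursor of saposins, had 227, 229 and 226 FPKM with crenolanib, against 189, 192 and 183 FPKM with DMSO (log2 change 0.27 ± 0.026, SE, limma adjusted p = 0.000397). The cathepsin CTSD (0.35), the protective protein CTSA (0.39), the cholesterol carrier NPC2 (0.36) and the galactosidase GLA (0.41) rose, while LGMN (-0.29) and CTSL (-0.16, not without DMSO 1 or DMSO 2) fell. CTSA shares exon bases with NEURL2. The letters TCACGTGA, the core of the CLEAR element, occur in 1.036% of all promoters, in 2.167% of those of tested genes and in 7 of 28 lysosomal ones. Of the 17 lysosomal genes with a promoter that rose, 3 hold them (CTSA, LAMP1 and PSAP), and of all genes that rose 1.267% do. SQSTM1, the autophagy receptor p62, which shares exon bases with MRNIP, rose (25.9, 28.1 and 26.9 FPKM with crenolanib, against 19.1, 18.7 and 18.3 FPKM with DMSO; log2 change 0.51 ± 0.036, SE, limma adjusted p = 7.55e-05).

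**Figure D3:**
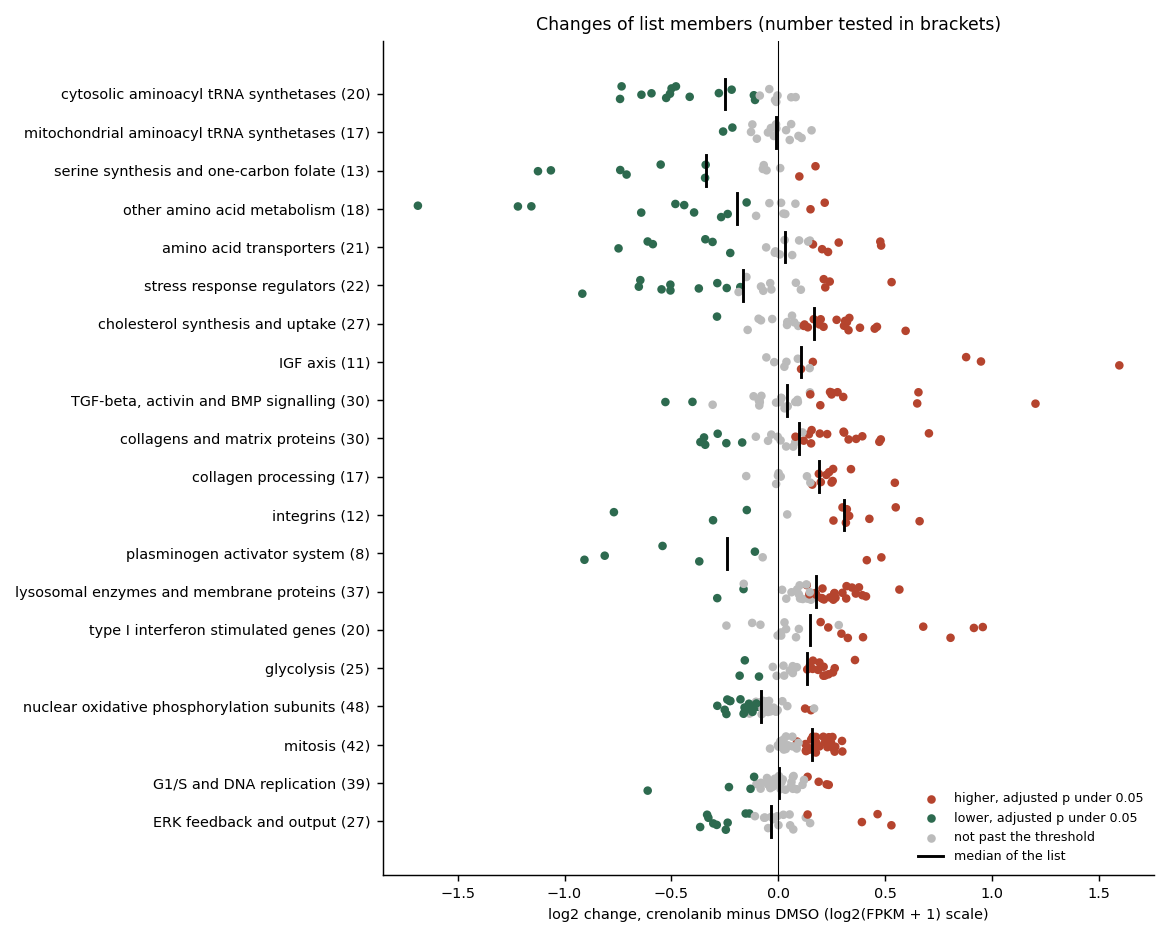
Each point is 1 tested gene of a list, with its log2 change (crenolanib minus DMSO) on the horizontal axis; red points rose and green points fell with adjusted p under 0.05, grey points did not pass, and a black bar marks the median of each list. Cytosolic synthetases and serine enzymes lie left of 0 (medians -0.25 and -0.34), integrins furthest to the right among the lists shown (0.31), and mitosis lies slightly right of 0 with narrow spread (0.16).

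Some glycolysis genes rose and some nuclear-encoded respiratory subunits fell, by small amounts. LDHA, lactate dehydrogenase A, had 236, 228 and 238 FPKM with crenolanib, against 183, 184 and 179.7 FPKM with DMSO (log2 change 0.36 ± 0.026, SE, limma adjusted p = 8.59e-05). PKM, pyruvate kinase, had 394, 416 and 402 FPKM with crenolanib, against 347, 342 and 339 FPKM with DMSO (log2 change 0.24 ± 0.028, SE, limma adjusted p = 0.000922). In the glycolysis list, 13 rose and 3 fell of the 25 tested (median 0.14), and 9 or 10 rose without any single library. In the hypoxia list, 10 rose and 1 fell of the 21 tested, with none lower without DMSO 3 and 2 lower without crenolanib 3: BNIP3 (0.50), a mitophagy receptor, ADM (0.54) and EPAS1 (0.40), which encodes HIF-2 alpha, rose, but VEGFA, NDRG1 and CA12 did not pass (-0.10, -0.13 and 0.019). Of the nuclear oxidative phosphorylation subunits, 2 rose and 18 fell of the 48 tested (median -0.079), and 10 fell without DMSO 2 or without crenolanib 3. The 2 that rose were CYCS (0.13) and UQCRC1 (0.15), and without DMSO 3 or crenolanib 3 neither passed. SDHB of complex II had 35.3, 34.4 and 35.2 FPKM with crenolanib, against 43.2, 43.2 and 42.0 FPKM with DMSO (log2 change -0.28 ± 0.027, SE, limma adjusted p = 0.000297). Transcripts of mitochondrial DNA took 25.83, 26.32 and 25.55% of all FPKM with crenolanib, against 24.19, 22.87 and 25.25% with DMSO. MT-ND1 (3083, 3176 and 3054 FPKM with crenolanib, against 2056, 1837 and 2113 FPKM with DMSO; log2 change 0.64 ± 0.051, SE, limma adjusted p = 0.000144), MT-CYB (0.50) and MT-ND2 (0.37) rose and MT-CO1 fell (-0.24). Of the mitochondrially encoded mRNAs, 4 rose and 1 fell of the 13 tested (median 0.10). They take a large share of each library, and scaling without them gave 1690 higher and 1306 lower genes.

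Many mitotic genes rose, each by little. Of the mitosis list, 28 rose and 0 fell of the 42 tested (median 0.16), and 19 to 25 rose without any single library. PLK1, a kinase of mitotic entry, had 40.9, 41.7 and 40.3 FPKM with crenolanib, against 35.4, 34.8 and 34.1 FPKM with DMSO (log2 change 0.23 ± 0.028, SE, limma adjusted p = 0.00106). CENPE, a kinetochore motor, had 8.53, 8.13 and 8.06 FPKM with crenolanib, against 6.53, 6.80 and 6.70 FPKM with DMSO (log2 change 0.27 ± 0.037, SE, limma adjusted p = 0.00179). ASPM (0.30) and ANLN (0.21), of the spindle pole and the cleavage furrow, rose as well. Genes of G1 and DNA replication passed no more often than all tested genes. Of the 39 tested, 4 rose and 4 fell (median 0.003), or 10.3% each way, against 13% and 13.1% of all tested genes. CCND2, cyclin D2, had 3.74, 3.60 and 3.66 FPKM with crenolanib, against 6.19, 6.09 and 6.11 FPKM with DMSO (log2 change -0.61 ± 0.036, SE, limma adjusted p = 2.88e-05). CCND1, the far more abundant cyclin D1, rose slightly (115, 114 and 112 FPKM with crenolanib, against 100.1, 106 and 104 FPKM with DMSO; log2 change 0.14 ± 0.029, SE, limma adjusted p = 0.0108), CDKN1A, encoding p21, fell (-0.23), and CDKN1B, encoding p27, rose (0.24). Without any one of DMSO 1, DMSO 2, DMSO 3, crenolanib 2 or crenolanib 3, the count lower in this list was 2.

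Readouts of receptor signalling fell in part. DUSP6, the ERK phosphatase induced by ERK itself, had 49.9, 51.2 and 48.7 FPKM with crenolanib, against 64.9, 63.7 and 65.1 FPKM with DMSO (log2 change -0.37 ± 0.028, SE, limma adjusted p = 0.000107). SPRY4, a feedback inhibitor, had 25.0, 25.3 and 24.3 FPKM with crenolanib, against 31.1, 29.7 and 30.8 FPKM with DMSO (log2 change -0.29 ± 0.030, SE, limma adjusted p = 0.000575). The groups were apart in both, yet the changes were modest, and in the ERK list 4 rose and 9 fell of the 27 tested (median -0.033). DUSP5 (-0.25) and ETV5 (-0.33) fell; DUSP4 (0.47) and HMGA2 (0.53) rose; EGR1, MYC and SPRY2 did not pass (-0.061, -0.047 and 0.15). Of the AP-1 list, 4 rose and 4 fell of the 19 tested: JUN had 53.8, 58.1 and 59.7 FPKM with crenolanib, against 81.5, 83.8 and 79.7 FPKM with DMSO (log2 change -0.51 ± 0.041, SE, limma adjusted p = 0.000144), FOS fell (-0.46), and KLF6 (30.6, 30.7 and 28.8 FPKM with crenolanib, against 20.8, 21.5 and 21.0 FPKM with DMSO; log2 change 0.49 ± 0.034, SE, limma adjusted p = 5.94e-05) and JUND (0.47) rose. YAP and TEAD targets split: ANKRD1 had 19.5, 18.1 and 19.0 FPKM with crenolanib, against 10.96, 11.7 and 11.3 FPKM with DMSO (log2 change 0.68 ± 0.039, SE, limma adjusted p = 2.3e-05) while CTGF fell (-0.25), 8 rose and 6 fell of the 25 tested. In the BCL2 family, 3 rose and 2 fell of the 15 tested (20% and 13.3%, against 13% and 13.1% of all tested genes). BMF, a BH3-only promoter of apoptosis, had 2.85, 3.11 and 3.29 FPKM with crenolanib, against 1.33, 1.37 and 1.29 FPKM with DMSO (log2 change 0.81 ± 0.054, SE, limma adjusted p = 5.16e-05). PMAIP1, encoding NOXA, rose (0.31), while BCL2L11, MCL1 and BCL2L1 did not pass (0.071, -0.021 and -0.012). The calls of BCL2A1, BMF and PMAIP1 held without any single library. BCL2L13 (-0.14), the other one that fell, lost its call without DMSO 1, DMSO 3, crenolanib 1 or crenolanib 3.

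In the list for the aryl hydrocarbon receptor, a ligand-activated transcription factor, 4 rose and 0 fell of the 6 tested. CYP1B1, its classical target in fibroblast-like cells, had 3.76, 4.08 and 3.51 FPKM with crenolanib, against 1.92, 2.02 and 1.79 FPKM with DMSO (log2 change 0.72 ± 0.058, SE, limma adjusted p = 0.000144). The receptor gene AHR had 5.29, 4.82 and 5.42 FPKM with crenolanib, against 3.54, 3.51 and 3.58 FPKM with DMSO (log2 change 0.44 ± 0.047, SE, limma adjusted p = 0.000575). ALDH1A3 (0.27) and TIPARP (0.27) rose less. These counts were the same without any single library.

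Crenolanib was also compared with ceritinib, an inhibitor of the kinase ALK, at the same dose and time, over the genes that passed the same filter in those 6 libraries. Between crenolanib and ceritinib, 1745 genes were higher with crenolanib (15.2% of 11486 tested) and 2234 lower (19.4%). On the TPM scale, where values of each library sum to the same total, these were 2556 and 1463, so the split of directions depends on the scaling. Genes of the serine pathway did not pass the threshold. PSAT1 had 105, 97.1 and 98.1 FPKM with crenolanib, against 96.7, 100.3 and 97.0 FPKM with ceritinib, a difference (crenolanib minus ceritinib) of 0.028 ± 0.033 (SE; limma, adjusted p = 0.553). PHGDH differed by 0.021 ± 0.029 (SE; limma, adjusted p = 0.6) and MTHFD2 by -0.025 ± 0.029 (SE; limma, adjusted p = 0.537). A p that misses the threshold does not show that the 2 drugs act alike on these genes. ASNS was slightly higher with crenolanib, by 0.18 ± 0.048 (SE; limma, adjusted p = 0.0192), a call lost without crenolanib 1 or ceritinib 2 or 3, and CHAC1 was higher by 0.68. CTH was lower by -0.18 ± 0.053 (SE; limma, adjusted p = 0.0314), a call lost without any one of the 6 libraries, on the TPM scale and with the GC and length correction. SLC7A5 (0.36) and CARS (0.25) were also higher with crenolanib than with ceritinib, whereas WARS (-0.15) and the stress regulator DDIT4 (-0.83) were lower.

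Several genes separated the 2 drugs, among them a receptor named as a target of crenolanib. PDGFRA had 7.35, 6.60 and 6.76 FPKM with crenolanib, against 3.47, 4.12 and 4.07 FPKM with ceritinib (0.70 ± 0.063, SE, limma adjusted p = 0.000142), and every crenolanib library was the higher. Against DMSO, PDGFRA did not pass with crenolanib and the groups overlapped, as given above. Its ceritinib values lay under every DMSO value given there. IL1A had 19.6, 17.1 and 17.4 FPKM with crenolanib, against 47.4, 49.1 and 49.6 FPKM with ceritinib, a difference of -1.39 ± 0.049 (SE; limma, adjusted p = 1.08e-06). BCL2A1 (-1.33), IL1B (-1.31), PLAU (-1.25), LAMB3 (-1.20) and G0S2 (-1.55) were lower with crenolanib than with ceritinib as well as lower than with DMSO. For each of these genes the mean with ceritinib was above that with DMSO, as in PLAU (384 against 235 FPKM). Ceritinib against DMSO was not tested, and these differences hold both drugs' departures from DMSO. CXCR4 had 2.62, 2.50 and 2.60 FPKM with crenolanib, against 7.65, 7.70 and 7.29 FPKM with ceritinib (-1.26 ± 0.040, SE, limma adjusted p = 6.19e-07), so the crenolanib libraries lay between those of ceritinib and DMSO. TIMP3 (1.06), ITGB5 (1.07), VEGFC (1.01), BMF (0.96) and DKK1 (0.78) were higher with crenolanib than with ceritinib, and higher than with DMSO. The mean with ceritinib was below that with DMSO in TIMP3 (40.7 against 59.6 FPKM) and above it in DKK1 (33.5 against 26.4 FPKM). The binding proteins IGFBP7 (0.44) and IGFBP4 (0.32) were higher with crenolanib too, and IGFBP5, by 0.23 ± 0.064 (SE; limma, adjusted p = 0.0258), lost its call without crenolanib 1 or 3 or ceritinib 3. IL7R and ITGA2 did not pass (0.052 and -0.0041), though both rose from DMSO.

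**Figure D4:**
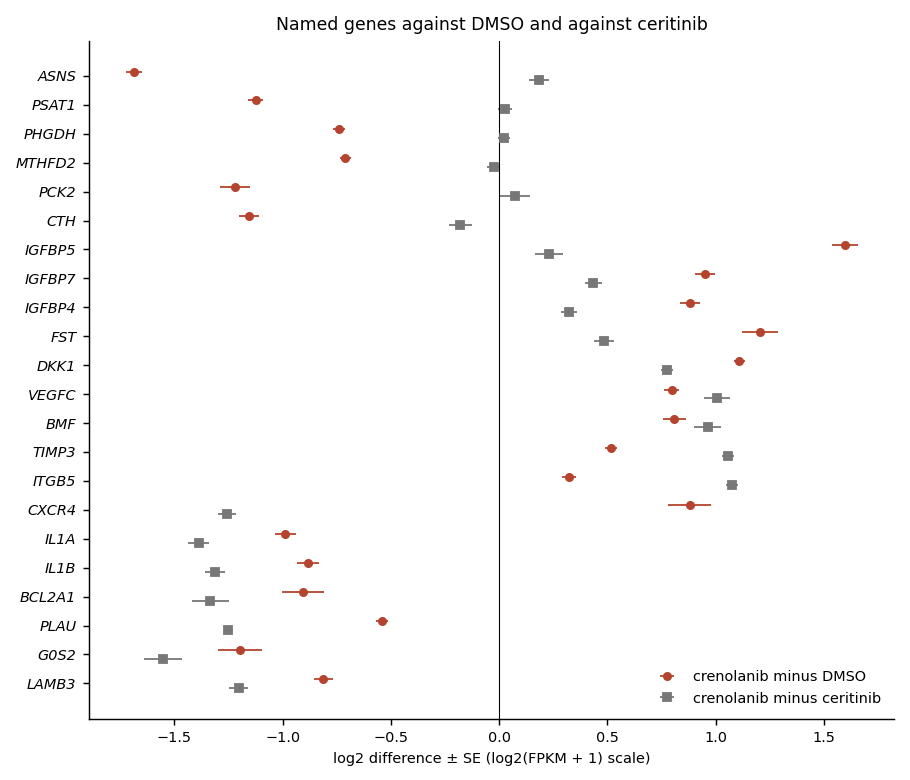
Red circles are the log2 changes of 22 named genes from DMSO and grey squares their differences from ceritinib (crenolanib minus ceritinib), each with its standard error. Squares near 0 with circles far to the left mark the amino acid genes (PSAT1 0.03 and -1.12), while IL1A, BCL2A1 and PLAU have both far left, and CXCR4 has its circle right of 0 (0.88) and its square left of it (-1.26).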

How the data were processed

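Total RNA of 143B cells was made into strand-specific libraries and sequenced on an Illumina NovaSeq instrument, per the labels' protocols. Per the submitters' processing notes, FastQC 0.11.2, STAR and StringTie were used on build hg38; their settings and the annotation were not given in the sources read here. FPKM is taken as the unit of the authors' deposited values, 1 per gene symbol and library, since the values fit it and no header names one. The labels give 3 replicates per group. The p-values set each group difference against the spread between these libraries, with each gene's variance drawn toward a trend over all genes.

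The entry with no gene name (2.42 to 3.03 FPKM with crenolanib, 2.61 to 3.004 FPKM with DMSO) was left out. log2(FPKM + 1) of the members was fitted with limma 3.58.1 in R 4.3.3 (group means, variance trend, Benjamini-Hochberg over all genes tested, 4 residual degrees of freedom). The same fit compared crenolanib with ceritinib. GENCODE 29 matched 54611 of 56140 symbols and gave coordinates and overlaps. Promoters are RefSeq's (GRCh38.p14), 1 per gene.

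The members and the 45 gene lists were chosen with earlier results of these data known. The genes named were protein-coding genes past the threshold with non-overlapping groups and at least 1 FPKM in the mean of the higher group. Of these, the 15 largest changes each way and up to 4 per list were taken. PDGFRA, PDGFRB, FLT3, KIT, their ligands and the IGFBP family were named whatever their values. Readthrough genes were left out. Other list members are named to complete a list or were chosen after their values were seen. On simulated data with 200 changed genes among 11438, the fit recovered 44% of those changed by 0.25 and 86% of those changed by 0.5 (log2), and 4.41% of calls were false. Alternatives covered pseudocount, filter, libraries fitted, scaling, variance model, replicate block, GC and length correction, and leaving out each library.

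Some items are not reported here.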

Additional observations from a re-analysis of the deposited data

How the results depend on the processing

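The numbers of genes higher and lower were within 1.5 times of 1486 and 1496 under 10 of the 11 other settings, from 1165 to 1690 higher and from 1306 to 1641 lower. The exception was to test every gene with any value, 27594 in all, which gave 906 higher and 887 lower; far more genes were then adjusted over. Leaving out single libraries gave 935 to 1240 higher and 939 to 1284 lower. With the replicate number as a block, 1334 rose and 1320 fell. Residuals of same-numbered libraries correlated at 0.029, 0.06 and -0.0803, and those of differently numbered ones at -0.1052 to 0.0734. Whether same-numbered libraries were prepared together is not stated, and correlations from so few libraries cannot decide it. Against ceritinib the counts were 1288 to 1522 higher and 1640 to 1998 lower without single libraries, and the TPM scale gave 1463 lower (2556 higher); the cause was not tested. Of 258 genes named in the text, 216 passed the threshold; 17 of these lost the call without some single library, 10 under some other setting and 25 when every gene was tested, and the direction turned for none.
Read counts were not used here, so the precision of low levels rests on the estimated depth. A missing call does not show that a gene is unchanged. The 44% recovery at a change of 0.25 came from simulated data with 200 changed genes of 11438, whereas 2982 were called in the comparison. It is therefore not the recovery of the comparison itself.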

Other observations

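Contractile genes rose in part (11 rose and 1 fell of the 24 tested, median 0.097), with 7 higher on the TPM scale, without DMSO 3 or without crenolanib 3. CNN2, calponin 2, had 34.0, 36.6 and 34.6 FPKM with crenolanib, against 26.7, 27.8 and 26.1 FPKM with DMSO (log2 change 0.37 ± 0.037, SE, limma adjusted p = 0.000445), and TPM1 (0.25) and MYH9 (0.18) rose, while FLNC fell (-0.29). Among receptor tyrosine kinases outside the PDGF and KIT family, 5 rose and 6 fell of the 24 tested, with 2 lower without DMSO 1, DMSO 3, crenolanib 1 or crenolanib 3 and 3 without DMSO 2. The collagen receptor DDR2 had 6.92, 6.45 and 6.80 FPKM with crenolanib, against 9.43, 9.48 and 9.42 FPKM with DMSO (log2 change -0.44 ± 0.036, SE, limma adjusted p = 0.000164), and its relative DDR1 changed the opposite way (4.62, 4.71 and 4.38 FPKM with crenolanib, against 3.28, 3.49 and 3.41 FPKM with DMSO; log2 change 0.34 ± 0.043, SE, limma adjusted p = 0.00128). In the PDGF and KIT family, 6 rose and 3 fell of the 13 tested, and the co-receptors NRP1 (0.28) and NRP2 (-0.26) also parted.

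Of FOXO and PI3K-AKT feedback genes, 6 rose and 2 fell of the 22 tested (median 0.098), the 2 that fell being 1 without DMSO 1, 2 or 3 or crenolanib 2 or 3. CITED2 (0.34) and BCL6 (0.33) rose and TRIB1 fell (-0.27). Over all genes 13% rose and 13.1% fell, and the remaining lists can be read against these shares. In the NRF2 and glutathione list 3 rose and 5 fell of the 29 tested, in ribosome biogenesis 8 rose and 3 fell of the 40 tested, and in autophagy 6 rose and 3 fell of the 30 tested. In heat shock 2 rose and 1 fell of the 17 tested, in p53 targets 4 rose and 3 fell of the 19 tested, and in the osteoblast lineage 1 rose and 1 fell of the 10 tested. In V-ATPase subunits 4 rose and 1 fell of the 17 tested, and in galectins 2 rose and 0 fell of the 4 tested. Each of the 6 libraries, when left out, moved at least 1 of these small counts by over 1.5 times, with ranges of 0 to 3 higher for heat shock, 1 to 3 for p53 targets, 3 to 6 for ribosome biogenesis, 3 to 5 for autophagy and 2 to 5 for V-ATPase. HSPB1 and HSPA1A did not pass (-0.14 and 0.057), nor did the NRF2 targets NQO1 and GCLM (0.097 and -0.13) or the osteoblast regulator RUNX2 (0.16).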
